A study of Homo sapiens with 4 samples.

Results

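The genes described here are the nuclear genes of oxidative phosphorylation, taken as the protein-coding rows of the deposited count table whose symbols name subunits or NDUFAF, SDHAF and related factors of respiratory complexes I to V. Matching the symbols NDUFA, NDUFB, NDUFC, NDUFS, NDUFV and NDUFAF, SDHA to SDHD, SDHAF, UQCR, CYC1, COX4 to COX8 and ATP5 returned 103 of the 63241 genes in the table. The rule used symbols and gene type alone, and no measured value. The libraries were RNA-seq libraries of FT190 cells, an immortalised human fallopian tube secretory line that the labels call an ovarian epithelial cell. Knockdown cells expressed a short hairpin RNA against SMARCA4, the ATPase of the BAF chromatin remodelling complex, and gave 2 libraries (shSMARCA4 1 and 2, both with hairpin sh1). Control cells carried the PLKO vector and gave 2 libraries (control 1 and 2). All 4 libraries came from cells labelled as genotype WT and grown in RPMI with serum and without pyruvate, and a single hairpin in a single line was tested. The labels do not say whether replicates were separate cultures, so p-values measure only the spread between these libraries.

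Oxidative phosphorylation couples the oxidation of NADH and succinate to ATP synthesis at the inner mitochondrial membrane. Complexes I and II pass electrons to coenzyme Q, complex III passes them to cytochrome c, complex IV reduces oxygen, and complex V uses the proton gradient that results to make ATP. Most subunits are encoded in the nucleus and imported, a small set is encoded by mitochondrial DNA, and dedicated assembly factors join the 2 sets. In epithelial cells of the fallopian tube this machinery works beside glycolysis as a source of ATP.

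The promoters of these genes are known for binding sites of NRF1, of ETS factors such as GABPA (also called NRF2) and of YY1, and 4 promoters are shown because their genes include the largest fall and the largest rise for which a promoter was listed. Windows of 300 bases, from 250 before to 50 after the RefSeq start on GRCh38.p14, were found for 82 of the 103 genes. Motifs were searched on both strands as GCGCATGCG for NRF1, CCGGAAG for ETS and GATGGCG for YY1. The NRF1 letters are nearly palindromic, so a match on one strand can overlap a match on the other. Capitals mark the matches in the windows, which are written 5′ to 3′ on the strand of the gene. The NDUFAB1 window lies at chr16:23596267-23596566 (minus strand) and holds no match. That of NDUFA8 lies at chr9:122159730-122160029 (minus strand) and holds overlapping NRF1 matches on both strands at the start site. For NDUFAF4, at chr6:96897842-96898141 (minus strand), an ETS match begins at position -147. The SDHD window at chr11:112086623-112086922 (plus strand) holds NRF1 matches from position -110, an ETS match at -77 on the opposite strand and a YY1 match at position 35.
NDUFAB1: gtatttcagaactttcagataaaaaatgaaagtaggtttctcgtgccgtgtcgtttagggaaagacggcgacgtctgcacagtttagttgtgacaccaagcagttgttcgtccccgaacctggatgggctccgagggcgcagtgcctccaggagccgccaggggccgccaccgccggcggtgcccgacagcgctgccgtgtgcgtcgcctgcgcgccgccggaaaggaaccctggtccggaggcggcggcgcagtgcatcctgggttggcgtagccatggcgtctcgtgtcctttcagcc
NDUFA8: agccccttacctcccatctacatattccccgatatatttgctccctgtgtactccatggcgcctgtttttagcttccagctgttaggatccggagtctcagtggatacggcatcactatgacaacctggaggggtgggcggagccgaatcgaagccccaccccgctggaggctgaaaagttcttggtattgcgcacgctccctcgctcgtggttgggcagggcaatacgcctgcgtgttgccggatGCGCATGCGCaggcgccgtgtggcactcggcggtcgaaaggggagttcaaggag
NDUFAF4: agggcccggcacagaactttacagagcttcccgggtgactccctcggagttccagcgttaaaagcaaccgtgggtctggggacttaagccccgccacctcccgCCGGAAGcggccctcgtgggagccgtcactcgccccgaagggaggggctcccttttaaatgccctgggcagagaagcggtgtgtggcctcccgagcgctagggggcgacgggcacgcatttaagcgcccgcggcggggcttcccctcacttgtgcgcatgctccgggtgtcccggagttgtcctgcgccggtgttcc
SDHD: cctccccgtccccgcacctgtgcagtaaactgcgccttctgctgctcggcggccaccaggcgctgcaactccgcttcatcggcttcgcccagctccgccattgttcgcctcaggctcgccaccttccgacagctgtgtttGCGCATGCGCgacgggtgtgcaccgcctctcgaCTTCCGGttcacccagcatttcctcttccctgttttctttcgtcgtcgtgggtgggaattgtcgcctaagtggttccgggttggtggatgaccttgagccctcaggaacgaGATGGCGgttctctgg

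At least 1 of the 3 motifs was present in 43.9% of the members' windows, in 27.04% of the windows of tested protein-coding genes and in 15.6% of all listed windows. NRF1 matches stood in 13.4% of the members' windows, against 3.65% of tested protein-coding genes and 2.10% of all. ETS matches stood in 28.0% of the members' windows, against 19.1% and 10.7%. For YY1 the shares were 12.2% of the members' windows, against 7.42% and 4.35%. Among members with a window, a match to any motif was found in 4 of the 5 that rose, 3 of the 9 that fell and 29 of the 65 that did not pass the test. Over tested protein-coding genes with a window, the shares were 30.4% of those that rose and 20.6% of those that fell. These are counts of letters and not of bound factors, and the windows come from another annotation than the counts. No window was listed for ATP5F1D, the member with the largest fold change.

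**Figure D1:**
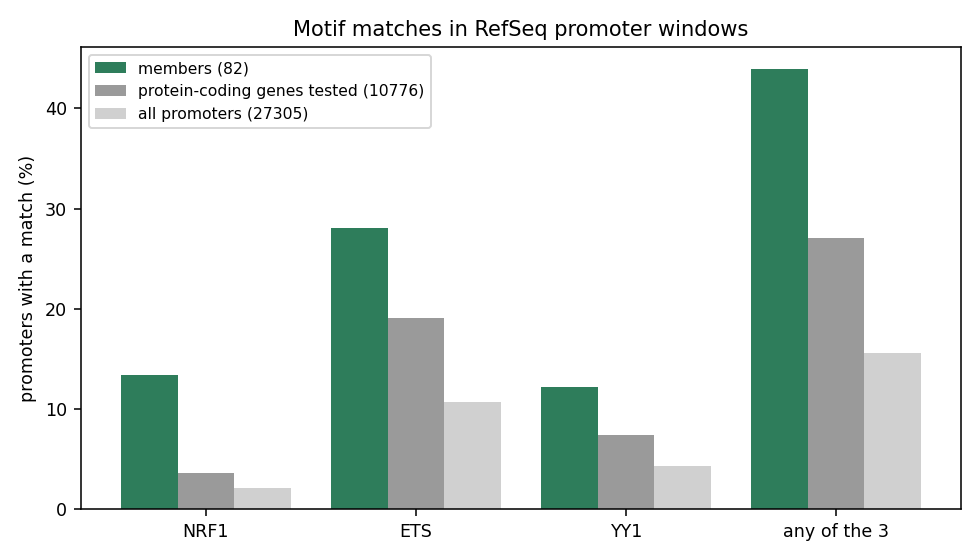
Share of promoter windows (percent, vertical axis) that hold the NRF1, ETS or YY1 letters or any of the 3, for the 82 members with a RefSeq window, the 10776 tested protein-coding genes and all 27305 windows. The members' bar is the highest for each motif, with 43.9% for any of the 3 against 27.04% and 15.6%.

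The libraries held 28536665 and 27137414 counts in shSMARCA4 cells and 33641343 and 32618516 in control cells. SMARCA4 itself was at 34.0 and 36.3 CPM (counts per 1e+06 counts of the scaled library) in shSMARCA4 cells, against 171 and 162 CPM in control cells (log2 fold change -2.24 ± 0.052 SE, adjusted p = 1.86e-07). Adjusted p-values here and below come from the quasi-likelihood test of edgeR, adjusted by the method of Benjamini and Hochberg. PAX8, a Mullerian lineage factor, was present at 63.2 and 63.5 CPM in shSMARCA4 cells and 57.4 and 59.8 CPM in control cells, while the secretory markers OVGP1 and MUC16 were at most 0.51 CPM. Of 6 epithelial markers, KRT7, KRT8 and KRT18 fell, CDH1 was between 3.41 and 4.70 CPM, EPCAM was at most 0.56 CPM and KRT19 at most 0.15 CPM. The summed level of these 6 was 1179.8 and 1182.5 CPM in shSMARCA4 cells and 1780.2 and 1673.2 CPM in control cells. Of the fibroblast markers, COL1A1 and PDGFRB fell and COL1A2 and DCN were at or near 0, and the sum of the 4 was 1556 and 1680.2 CPM in shSMARCA4 cells and 1991 and 2033 CPM in control cells. Immune (23.4 and 24.9 CPM in shSMARCA4, 22.7 and 25.1 CPM in control, nearly all from CD68) and endothelial sums (at most 0.71 CPM) were low. The part of the epithelial and fibroblast marker changes in the results below was not tested. In such bulk libraries, fewer cells of a type and less RNA per cell cannot be told apart.

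After SMARCA4 knockdown, the nuclear genes of oxidative phosphorylation changed in small steps and in both directions. Of 103 members 97 had enough counts to test, 5 rose (UQCRC2, SDHB, SDHD, ATP5MC2 and NDUFAF4) and 12 fell, led by ATP5F1D and NDUFAB1. The 17 called members were 17.5% of those tested, with 5.15% higher and 12.4% lower. Over all 18781 genes tested, 29.7% were called, 13.8% higher and 15.8% lower. Over the 13680 tested protein-coding genes 36.0% were called, 16.8% higher and 19.2% lower. The members' share of calls was thus below both backgrounds.

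The median log2 fold change of the tested members was 0.0052, with 50 above 0 and 47 below, and that of all genes tested was -0.0045. In absolute value the members' median was 0.079, against 0.19 over all genes tested and 0.17 over protein-coding genes. The estimated change was under 1.2-fold for 87 of the 97. The 95% interval lay wholly within a 1.2-fold change in either direction for 66 of them, so that for these a larger change lies outside the interval. Their median standard error was 0.050, against 0.070 for protein-coding genes, and their median level was 56.0 CPM, against 26.7 CPM. Both libraries of a group lay on one side of both of the other for 64 members, 35 higher and 29 lower in shSMARCA4. Over all genes tested this held for 65.9%, 32.4% higher and 33.5% lower, so the members' count is near the background. An unadjusted p under 0.05 was reached by 30 members, against 40.8% of all genes tested. Summed over all members, the level was 7151 and 7105 CPM in shSMARCA4 cells and 7315 and 7156 CPM in control cells. The mean shSMARCA4 sum was 0.985 of the mean control sum for the members. For all genes tested the ratio was 0.966, a value set by the scaling factors and not a yardstick for the members.

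The counts of calls depended on single libraries. Without shSMARCA4 library 1, 2 members rose and 7 fell, and without shSMARCA4 library 2, 1 rose and 8 fell. Without control library 1, 14 rose and 12 fell, and without control library 2, 8 rose and 19 fell. Scaled by library totals alone, 15 rose and 8 fell, so the split between higher and lower calls turns with the scaling. In that scaling the median of all genes tested was 0.045 and that of the members 0.055.

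**Figure D2:**
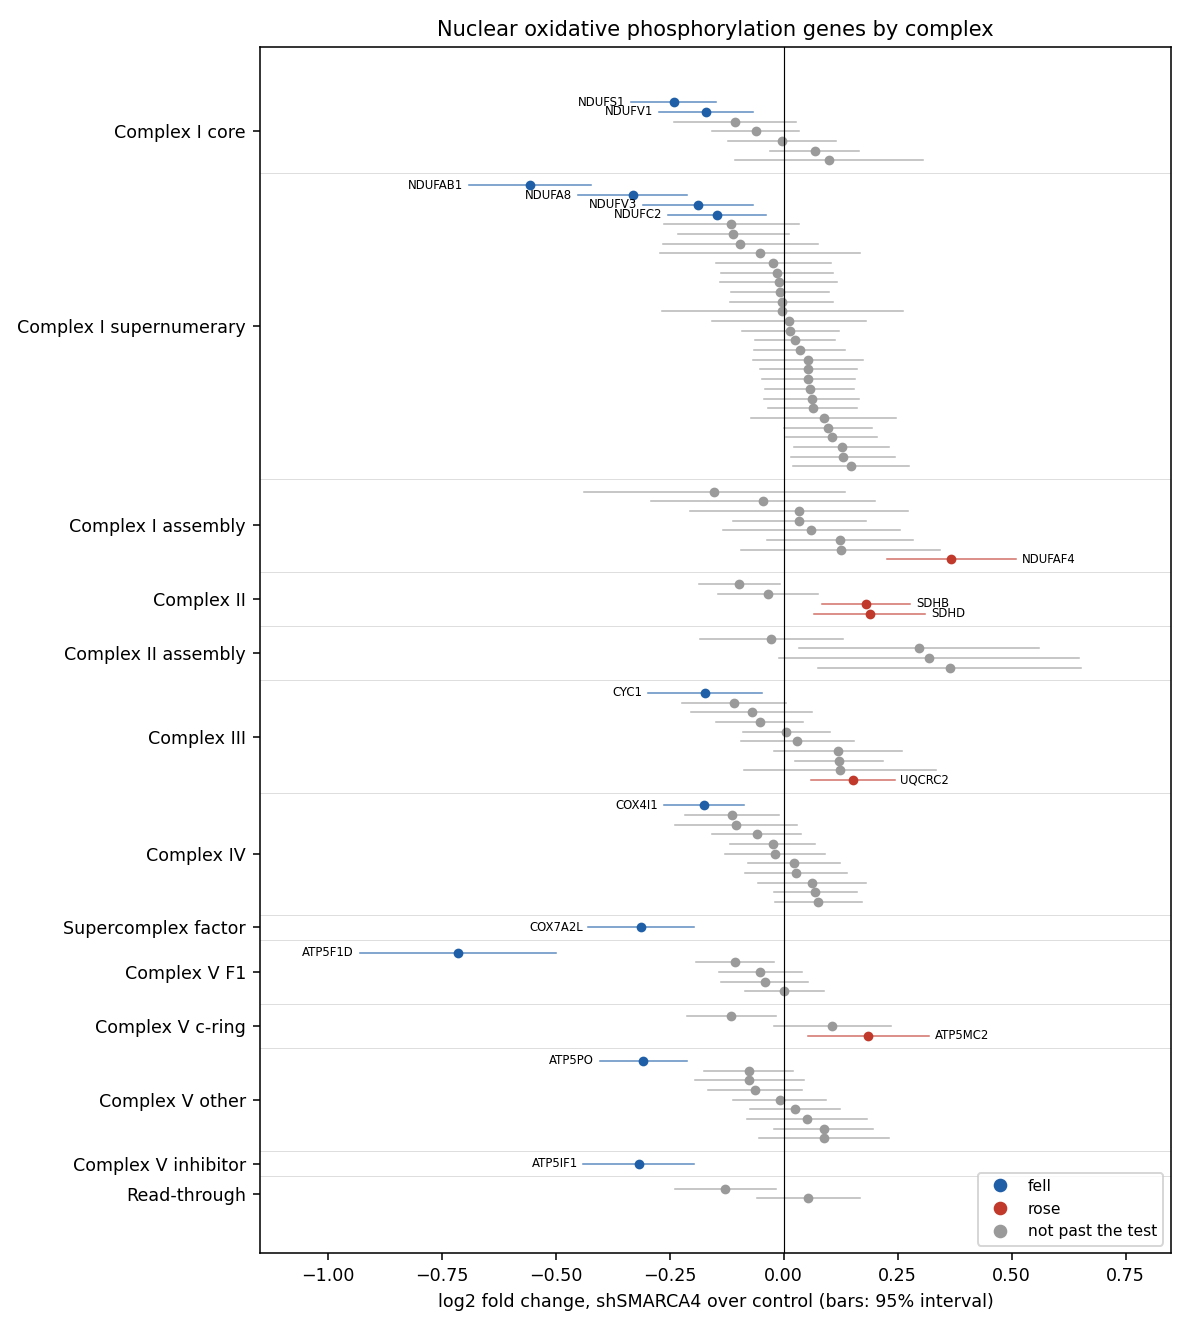
Log2 fold change, shSMARCA4 over control (horizontal axis), of the tested members grouped by complex and role, with 95% intervals as bars; the barely detected COX6B2 and NDUFA4L2 are left out. Blue points fell, red points rose and grey points did not pass the test; most points lie close to 0, and ATP5F1D and NDUFAB1 stand farthest to the left.

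Complex I, which oxidises NADH, showed 6 falls and no rise among its 37 subunits, all tested, and their median was -0.0028 on the log2 scale. The falls were 16.2% of the subunits, near the 15.8% of all genes tested and below the 19.2% of protein-coding genes. The 7 nuclear core subunits, which carry the flavin and the iron-sulfur clusters, included 2 that fell and had a median of -0.061. NDUFS1, the largest iron-sulfur subunit of the electron entry arm, was at 94.8 and 93.5 CPM in shSMARCA4 cells and 112 and 111 CPM in control cells. The groups did not overlap and each was tight, and NDUFS1 fell by 0.24 on the log2 scale (SE 0.041, adjusted p = 0.00244). NDUFV1, which binds NADH and the flavin, was at 61.96 and 60.5 CPM in shSMARCA4 cells and 67.9 and 69.8 CPM in control cells, a log2 fold change of -0.17 ± 0.046 SE (adjusted p = 0.0215). That call was lost in 5 of 14 alternatives, among them those without either shSMARCA4 library. The core subunits NDUFS3, NDUFS7, NDUFS8 and NDUFV2 did not pass the test and lay between -0.11 and 0.099.

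Among the 30 supernumerary subunits, which surround the core and are needed for assembly and stability, 4 fell and none rose, and the median was 0.013. NDUFAB1 encodes the mitochondrial acyl carrier protein, which serves lipoic acid synthesis and iron-sulfur cluster assembly as well as complex I (chr16:23581014-23596316, hg38, minus strand). It was at 27.4 and 26.4 CPM in shSMARCA4 cells and 40.8 and 38.5 CPM in control cells. The shSMARCA4 libraries lay well below both controls, and the gene fell by 0.56 (SE 0.059, adjusted p = 0.000208). NDUFA8, a subunit on the intermembrane space side with twin cysteine motifs (chr9:122144058-122159779, minus strand), was at 31.9 and 31.7 CPM in shSMARCA4 cells and 40.5 and 39.5 CPM in control cells. It fell by 0.33 (SE 0.053, adjusted p = 0.00172), again with no overlap.

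The remaining supernumerary calls were smaller. NDUFV3, an accessory subunit of the flavoprotein part, was at 40.8 and 43.6 CPM in shSMARCA4 cells and 48.5 and 47.5 CPM in control cells (log2 fold change -0.19 ± 0.053 SE, adjusted p = 0.0271). Its call was lost in 4 of 14 alternatives, with library totals alone, no filter on low counts, DESeq2 and without shSMARCA4 library 1. NDUFC2, a membrane arm subunit, was at 66.1 and 63.4 CPM in shSMARCA4 cells and 73.0 and 70.4 CPM in control cells (-0.15 ± 0.048 SE, adjusted p = 0.0446). It shares 431 exon bases with the read-through gene NDUFC2-KCTD14 (57.3 and 55.0 CPM in shSMARCA4, 62.5 and 60.1 CPM in control) and its call was lost in 8 of 14 alternatives, so it is uncertain. NDUFB4 and NDUFB2, membrane arm subunits, had the highest supernumerary fold changes at 0.15 and 0.13 without passing the test (adjusted p = 0.0776 and 0.0820 by edgeR). Per kilobase of the listed transcript, NDUFS5 and NDUFA1 were the most abundant complex I genes. NDUFS5 was at 179.9 and 180.1 CPM in shSMARCA4 cells and 179 and 175 CPM in control cells, with a 95% interval of the log2 fold change from -0.063 to 0.11. NDUFA1 was at 63.3 and 65.7 CPM in shSMARCA4 cells and 64.7 and 63.0 CPM in control cells.

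Complex II, succinate dehydrogenase, joins the citric acid cycle to the respiratory chain and has no subunit encoded by mitochondrial DNA. Of its 4 subunits SDHB and SDHD rose and none fell. Over all genes tested 13.8% were called higher, and over protein-coding genes 16.8%. SDHB, the iron-sulfur subunit, was at 112 and 109 CPM in shSMARCA4 cells and 99.5 and 96.2 CPM in control cells. It rose by 0.18 (SE 0.043, adjusted p = 0.0128), with both shSMARCA4 libraries above both controls. SDHD, a membrane anchor, was at 62.3 and 62.9 CPM in shSMARCA4 cells and 57.3 and 52.5 CPM in control cells, a rise of 0.19 (SE 0.054, adjusted p = 0.0276). The controls of SDHD lay farther apart than its shSMARCA4 libraries. The SDHB call was lost without either shSMARCA4 library and with no filter on low counts. The SDHD call was lost in the same alternatives, with DESeq2 and without control library 2.

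The flavoprotein SDHA went the other way without passing the test, at 146 and 149 CPM in shSMARCA4 cells and 157 and 158 CPM in control cells (-0.097 ± 0.040 SE, adjusted p = 0.0973 by edgeR). The second anchor, SDHC, was at 61.5 and 61.1 CPM in shSMARCA4 cells and 61.0 and 64.6 CPM in control cells, with overlapping groups and an interval from -0.14 to 0.075. Complex II thus held rises of 2 subunits beside values below 0 for the others.

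Complex III, which passes electrons from coenzyme Q to cytochrome c, had 1 rise and 1 fall among 10 tested members and a median of 0.018. These calls were 20% of its members, against 29.7% of all genes tested. UQCRC2, a core protein on the matrix side, was at 175 and 169.5 CPM in shSMARCA4 cells and 156 and 154 CPM in control cells, and rose by 0.15 (SE 0.040, adjusted p = 0.0206). Both shSMARCA4 libraries lay above both controls, but the call was lost without either shSMARCA4 library, with DESeq2 and with no filter on low counts. CYC1, the cytochrome c1 subunit, was at 35.8 and 34.0 CPM in shSMARCA4 cells and 40.0 and 38.7 CPM in control cells (-0.17 ± 0.055 SE, adjusted p = 0.0423). Its call was lost in 7 of 14 alternatives, including those without control library 1 and without either shSMARCA4 library. UQCRH, a hinge protein that binds cytochrome c1, was with UQCRC2 the most abundant complex III gene per kilobase, at 105 and 109 CPM in shSMARCA4 cells and 99.5 and 97.8 CPM in control cells. It had a fold change of 0.12 (adjusted p = 0.0623 by edgeR) and passed the test in 6 of 14 alternatives. Its near-identical copy UQCRHL, at 10.9 and 11.7 CPM in shSMARCA4 cells and 10.7 and 9.98 CPM in control cells, can share reads with it, so both are uncertain.

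Complex IV, cytochrome c oxidase, is a complex whose subunits exist as tissue isoforms, and 13 of its 18 nuclear genes could be tested. Of these 13, 7.69% were called, against 29.7% of all genes tested. COX4I1, the general isoform of subunit 4, was the only one that fell, and none rose. It was at 183 and 185 CPM in shSMARCA4 cells and 206 and 209 CPM in control cells. The groups stood clearly apart (-0.17 ± 0.039 SE, adjusted p = 0.00888), though the call was lost without either shSMARCA4 library. Its hypoxia and lung isoform COX4I2 had a count of 0 in all 4 libraries. The muscle isoform COX6A2 and the testis isoforms COX7B2 and COX8C also had a count of 0 in all 4 libraries. An observed 0 leaves room for an expected count of up to 3 a library. The muscle isoform COX7A1 had 3 counts in shSMARCA4 library 1 and 0 in the others.

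The general partners of these isoforms were well expressed. COX6A1 was at 42.4 and 40.6 CPM in shSMARCA4 cells and 40.3 and 39.2 CPM in control cells. COX7A2 was at 126 CPM in both shSMARCA4 libraries and 122 and 117 CPM in control cells. COX8A was at 46.9 and 45.7 CPM in shSMARCA4 cells and 46.5 and 47.3 CPM in control cells. COX7C and COX7B, the most abundant complex IV genes per kilobase, had log2 fold changes of 0.069 and -0.024. COX6B1, which faces the intermembrane space, was at 68.1 and 70.8 CPM in shSMARCA4 cells and 75.8 and 74.4 CPM in control cells without passing the test (adjusted p = 0.0900 by edgeR). Its testis isoform COX6B2 was at most 0.56 CPM, and NDUFA4L2, the hypoxia-linked paralog of NDUFA4, at most 0.84 CPM. At those levels no change could be measured, with a 95% interval from -1.05 to 1.204 for COX6B2. NDUFA4 itself, now counted as a complex IV subunit, was at 95.02 and 99.99 CPM in shSMARCA4 cells and 96.6 and 95.4 CPM in control cells.

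COX7A2L, a relative of COX7A2 that joins complexes III and IV in supercomplexes (chr2:42349338-42369010, minus strand), fell. It was at 44.5 and 43.9 CPM in shSMARCA4 cells and 56.5 and 53.3 CPM in control cells. The log2 fold change was -0.31 ± 0.051 SE (adjusted p = 0.00199), with a 95% interval from -0.43 to -0.20. COX7A2 itself lay at 0.076 with an interval from -0.019 to 0.17.

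Complex V, the ATP synthase, had 2 falls and 1 rise among 17 tested subunits and a median of -0.042, and its separate inhibitor fell too. Of the 17 subunits 17.6% were called, against 29.7% of all genes tested. ATP5F1D, the delta subunit of the rotating central stalk (chr19:1241751-1244825, plus strand), had the largest fold change of all tested members. It was at 9.53 and 9.89 CPM in shSMARCA4 cells and 16.9 and 14.9 CPM in control cells. It fell by 0.71 (SE 0.095, adjusted p = 0.000682), with a 95% interval from -0.93 to -0.50. Per kilobase it was the least abundant F1 gene, with 9.83 CPM per kilobase in shSMARCA4 cells and 16.1 in control cells.

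The other 4 F1 genes did not pass the test and lay between -0.11 and 0.0016. ATP5F1A, which encodes the alpha subunit, was at 442 and 431 CPM in shSMARCA4 cells and 440.02 and 432 CPM in control cells, with an interval from -0.085 to 0.088. ATP5F1B, the catalytic beta subunit and the most abundant member per kilobase, was at 674 and 669 CPM in shSMARCA4 cells and 735 and 712 CPM in control cells. Its groups did not overlap, yet its adjusted p was 0.0610 by edgeR, and it passed the test in 4 of 14 alternatives. The fold changes within F1 therefore ranged from about none for ATP5F1A to the fall of ATP5F1D.

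ATP5PO, also called OSCP, ties the peripheral stalk to F1 (chr21:33903455-33915814, minus strand). It was at 119.7 and 123 CPM in shSMARCA4 cells and 153 and 148 CPM in control cells, and fell by 0.31 (SE 0.042, adjusted p = 0.000773). The same-strand gene AP000311.1 shares 655 exon bases with it and fell by 0.28, so reads of the pair cannot be told apart and the ATP5PO value is uncertain to that extent. The other 8 tested genes of the stalk and membrane part lay between -0.077 and 0.088. ATP5MGL, a copy of a membrane subunit gene, had 1 and 0 counts in shSMARCA4 libraries and 3 and 4 in control libraries and was not tested.

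The c-ring that turns in the membrane is encoded by 3 genes whose mature proteins are alike, and 1 of them passed the test. ATP5MC2 was at 55.2 and 61.4 CPM in shSMARCA4 cells and 50.7 and 51.7 CPM in control cells and rose by 0.19 (SE 0.059, adjusted p = 0.0413). Its shSMARCA4 libraries lay apart from each other, and the call was lost without shSMARCA4 library 2, with DESeq2 and with no filter on low counts. ATP5MC1 was at 50.2 CPM in both shSMARCA4 libraries and 48.8 and 44.4 CPM in control cells, and ATP5MC3 was at 90.6 and 88.9 CPM in shSMARCA4 cells and 98.8 and 95.6 CPM in control cells. Neither passed the test (0.11 and -0.12), and differences between the 3 genes were not tested. ATP5IF1, which blocks ATP hydrolysis by the enzyme when the gradient collapses (chr1:28236154-28238098, plus strand), fell by 0.32 (SE 0.054, adjusted p = 0.00235). It was at 50.4 and 54.4 CPM in shSMARCA4 cells and 64.0 and 66.7 CPM in control cells.

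The 12 assembly factors among the members, 8 for complex I and 4 for complex II, had a median of 0.092, and 1 of them rose. That is 8.33% called higher, against 13.8% of all genes tested. Without control library 2 the median was 0.026. NDUFAF4, a matrix factor for early complex I intermediates (chr6:96889315-96897891, minus strand), was at 40.6 and 40.1 CPM in shSMARCA4 cells and 32.8 and 29.7 CPM in control cells. It rose by 0.37 (SE 0.062, adjusted p = 0.00237), the largest rise of any member. The other 7 complex I factors lay between -0.15 for NDUFAF7 and 0.12 for NDUFAF8.

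Of the complex II factors, SDHAF1, SDHAF3 and SDHAF4 had log2 fold changes near that of NDUFAF4 but were measured from few reads. SDHAF1, which serves iron-sulfur transfer to SDHB, was at 5.66 and 6.38 CPM in shSMARCA4 cells and 4.88 and 4.46 CPM in control cells (0.36 ± 0.13 SE, adjusted p = 0.0597 by edgeR). SDHAF3, which acts beside it, was at 3.80 and 3.91 CPM in shSMARCA4 cells and 3.26 and 2.91 CPM in control cells (0.32 ± 0.15 SE). SDHAF4, which acts on the flavoprotein, was at 6.70 and 6.56 CPM in shSMARCA4 cells and 5.15 and 5.64 CPM in control cells (0.30 ± 0.12 SE). In all 3 both shSMARCA4 libraries lay above both controls, as in 32.4% of all genes tested, and none passed the test. Under the 14 alternatives SDHAF1 passed in 3 and SDHAF4 in 1. SDHAF2, which attaches the flavin to SDHA, was at 22.2 and 20.6 CPM in shSMARCA4 cells and 22.0 and 21.7 CPM in control cells.

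**Figure D3:**
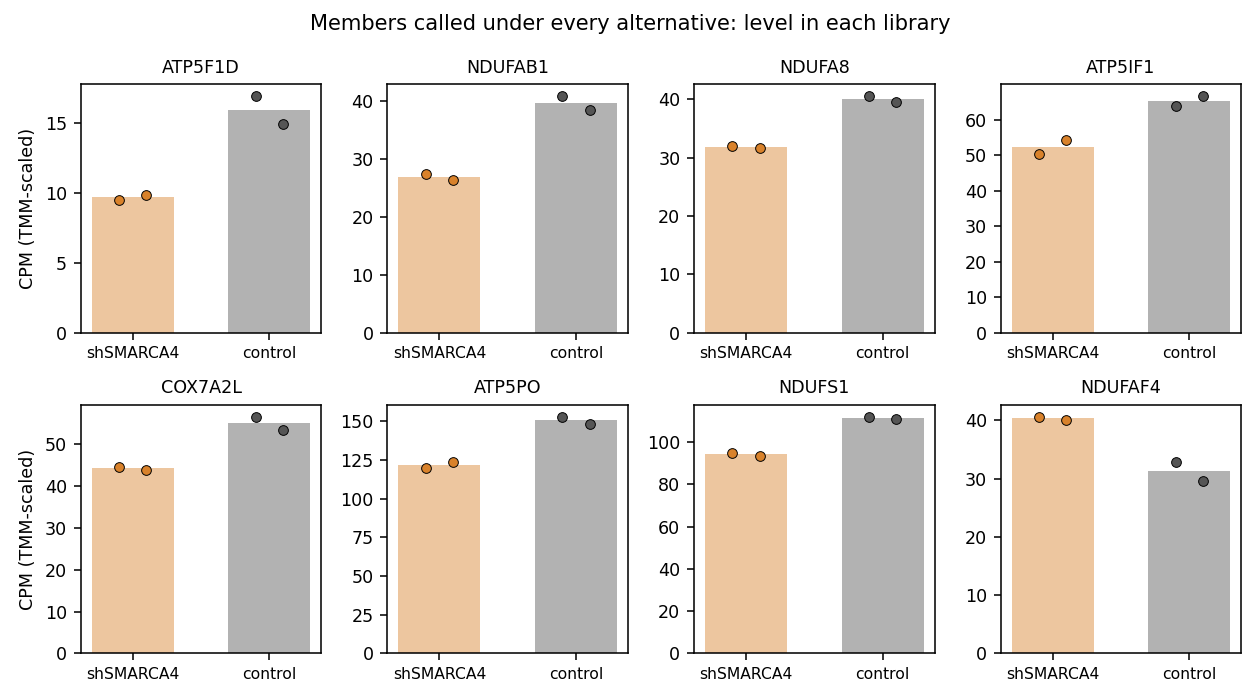
Level in each library (CPM, normalised by TMM factors, vertical axes from 0) of the 8 members called under all 14 alternatives, with shSMARCA4 left and control right; bars are means of 2 libraries and points are the libraries. In 7 panels both shSMARCA4 points lie below both control points, and in the NDUFAF4 panel both lie above.

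These 8 members kept their call in all 14 alternatives: ATP5F1D, NDUFAB1, NDUFA8, ATP5IF1, COX7A2L, ATP5PO and NDUFS1 fell and NDUFAF4 rose in each. The lowest and highest log2 fold changes were -0.80 and -0.62 for ATP5F1D, -0.60 and -0.51 for NDUFAB1 and 0.30 and 0.45 for NDUFAF4. The remaining 9 called members lost the call in 2 to 8 alternatives while keeping their direction. NDUFS1 shares 19 of its 12268 exon bases with EEF1B2 and 1411 with the antisense gene AC007383.3, both of which fell. It also shares 391 with the same-strand pseudogene GCSHP3, which was called lower too but was at most 0.84 CPM. AC007383.3 was at 1.66 and 1.56 CPM in shSMARCA4 cells and 2.99 and 3.10 CPM in control cells. Reads were counted without strand, so the NDUFS1 value is uncertain to the extent of shared reads. In all, 7 of the 17 called members share exon bases with another gene, as do 53 of all 103 members. Same-named pseudogenes exist for 52 members, and their reads came to no more than 10% of the counts of gene and pseudogenes together in any member.

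**Figure D4:**
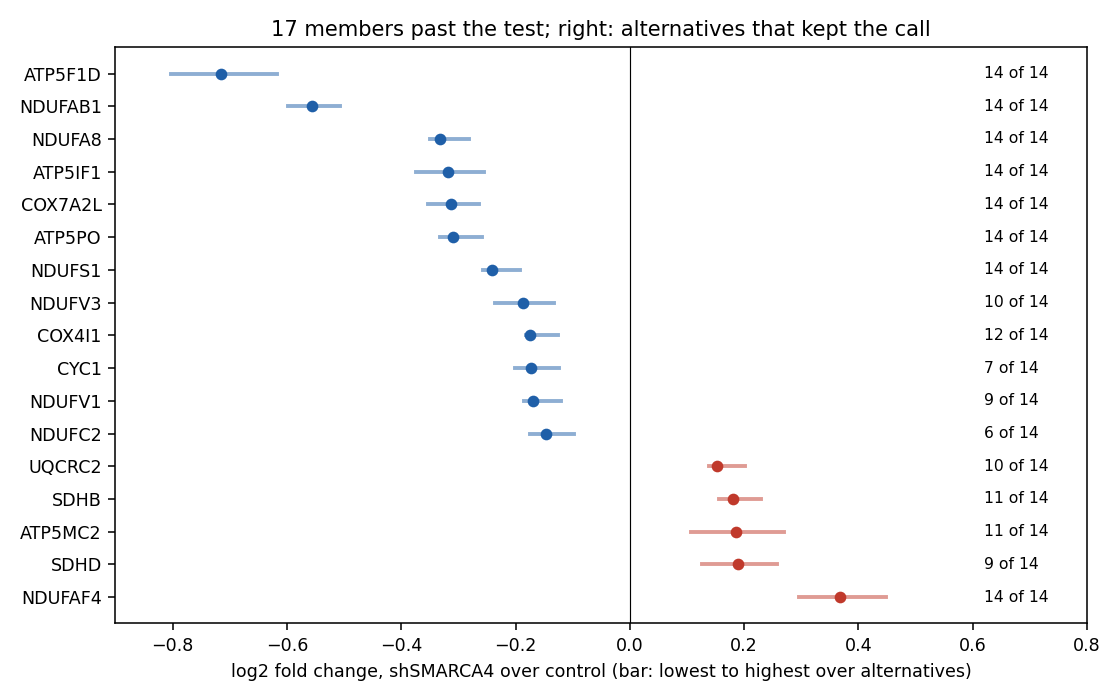
Log2 fold change, shSMARCA4 over control (horizontal axis), of the 17 called members as dots, with bars from the lowest to the highest value over 14 alternative analyses and the number of alternatives that kept the call at the right. No bar crosses 0; 8 members kept the call in 14 of 14, and NDUFC2 did so in the fewest, 6.

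Compared complex by complex, the medians differed little from each other or between libraries. Set against the mean of both controls, the median log2 CPM over all tested members was 0.0089 and -0.0035 in shSMARCA4 libraries and 0.018 and -0.018 in control libraries. The groups overlapped. For complex V it was -0.032 and -0.042 in shSMARCA4 libraries and 0.026 and -0.026 in control libraries. Complex II subunits, at 0.077 and 0.061 in shSMARCA4 libraries and 0.011 and -0.011 in control libraries, and the assembly factors, at 0.070 and 0.12 in shSMARCA4 libraries and 0.044 and -0.044 in control libraries, were the groups whose shSMARCA4 libraries both lay above both controls, and complex V was the one with both below. Leaving out 1 library moved these medians, to between -0.0066 and 0.038 for complex I, 0.066 and 0.076 for complex II, -0.021 and 0.062 for complex III, -0.029 and 0.012 for complex IV, -0.053 and 0.0013 for complex V and 0.026 and 0.13 for the assembly factors. The sign of the median thus turned when single libraries were left out in complexes I, III, IV and V. For complex IV the median with all libraries was 0.022, outside its range. That value counts the barely detected COX6B2 and NDUFA4L2, whose change could not be measured. Differences between the complexes were not tested.

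**Figure D5:**
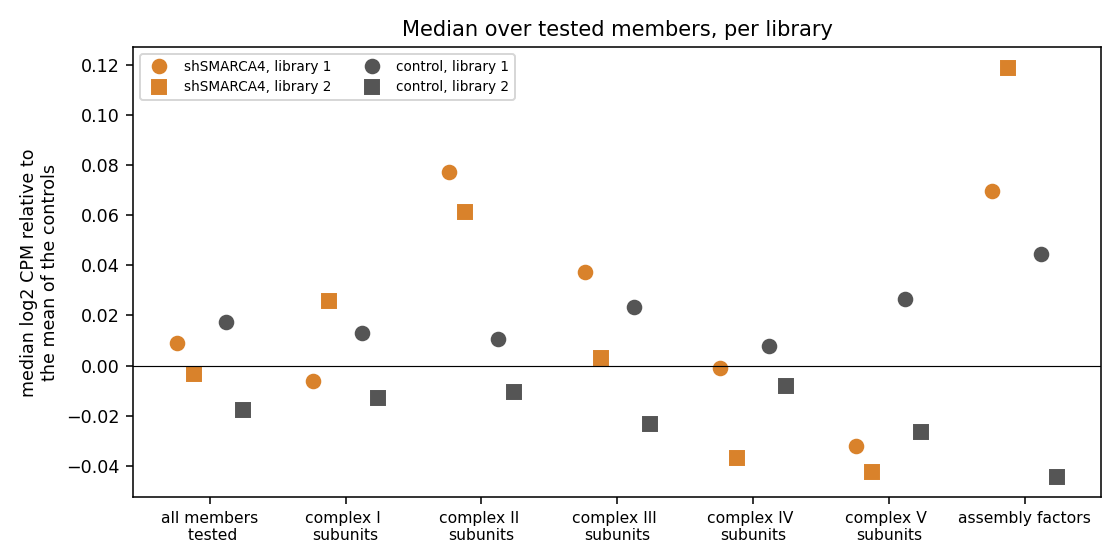
Median over the tested members of each group of log2 CPM relative to the mean of the controls (vertical axis), with 1 symbol per library and shSMARCA4 left of control; the controls are symmetric about 0 by construction. The shSMARCA4 medians of all members, 0.0089 and -0.0035, lie between the control values of 0.018 and -0.018, and those of complex II and of the assembly factors lie above both controls.

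The subunits encoded by mitochondrial DNA, which combine with these nuclear subunits in complexes I, III, IV and V, fell more widely. Of 13, 9 fell and none rose, and the median was -0.30 on the log2 scale. Of all genes tested 15.8% were called lower, and of protein-coding genes 19.2%. Their summed level was 22500 and 21789 CPM in shSMARCA4 cells and 24710.4 and 30790 CPM in control cells, with control library 2 well above the rest. The number that fell was 13 without control library 1, 12 without control library 2, 12 without shSMARCA4 library 1, 11 without shSMARCA4 library 2 and 2 with no filter on low counts. The nuclear members' sum differed far less between the same libraries. The difference between the nuclear and mitochondrial sets was not tested.

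Of the assembly factors outside the members, some for complexes I and IV rose, where 13.8% of all genes tested and 16.8% of protein-coding genes were called higher. Of 26 complex IV assembly factors 7 rose and none fell, with a median of 0.083. CMC1, a small factor for the COX1 module, was at 48.4 CPM in both shSMARCA4 libraries and 37.7 CPM in both controls (0.36 ± 0.049 SE, adjusted p = 0.000771 by edgeR), and COX15, which makes heme A, was at 67.5 CPM in both shSMARCA4 libraries and 54.6 CPM in both controls (0.31 ± 0.045 SE). COX16 and COA7, further assembly factors, rose by 0.27 each. The number that rose was 4 without shSMARCA4 library 1 and 3 with no filter on low counts, and 2 fell without control library 2. Of 12 other complex I factors COA1, DMAC2 and DMAC1 rose, none fell, with a median of 0.12, and 0 rose without shSMARCA4 library 1 and 5 without control library 1, while 1 fell without control library 2. Of 6 complex III factors LYRM7, which serves insertion of the iron-sulfur subunit, fell by 0.22, and of 4 complex V factors ATPAF2, a chaperone of the alpha subunit, fell by 0.50. Over all genes tested 15.8% were called lower. Among the 14 alternatives, the count called lower moved in 4 for complex III factors and in 2 for complex V factors. The LYRM7 call was lost without shSMARCA4 library 2 and the ATPAF2 call without shSMARCA4 library 1, and 2 complex III factors fell without control library 1.

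Of 13 regulators of respiratory gene transcription, 6 rose and none fell: TFB2M, TFAM, GABPA, PPARGC1B, YY1 and POLRMT. Of all genes tested 13.8% were called higher, and of protein-coding genes 16.8%. TFAM, which packages and transcribes mitochondrial DNA, was at 162 and 159 CPM in shSMARCA4 cells and 141 and 129 CPM in control cells (0.25 ± 0.049 SE, adjusted p = 0.00478 by edgeR). TFB2M, the transcription factor that opens mitochondrial promoters, was at 45.6 and 42.9 CPM in shSMARCA4 cells and 36.8 and 33.1 CPM in control cells (0.34 ± 0.065 SE). GABPA, the ETS factor whose letters were searched above, was at 76.3 and 80.1 CPM in shSMARCA4 cells and 67.4 and 65.5 CPM in control cells (0.23 ± 0.047 SE). PPARGC1B, a coactivator of respiratory genes, was at 10.3 and 10.4 CPM in shSMARCA4 cells and 8.14 and 7.996 CPM in control cells (0.36 ± 0.094 SE). The number that rose was 3 without shSMARCA4 library 1 and 2 without shSMARCA4 library 2, and 2 fell without control library 1 and 1 without shSMARCA4 library 2. NRF1, whose letters were also searched above, was at 18.5 and 17.8 CPM in shSMARCA4 cells and 17.8 and 17.4 CPM in control cells, with a log2 fold change of 0.042 and an interval from -0.12 to 0.20. TFB1M, a mitochondrial rRNA methyltransferase, was at -0.18 (adjusted p = 0.129 by edgeR) and the coactivator PPARGC1A, at most 0.87 CPM, at -1.304 (adjusted p = 0.0736), and neither passed the test.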

How the data were processed

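RNA-seq counts of 4 libraries were used. The values are raw counts per gene, deposited as the authors made them with HOMER's analyzeRepeats over GENCODE 45 exons on hg38, on both strands, with 1 transcript per gene and no adjustment, per the file headers. Alignment used STAR 2.6.1c, and DESeq2 1.19.38 is also named, per the submitters' processing notes. Without strand, overlapping and antisense genes share reads. Exon overlaps were read from GENCODE 29 and transcript lengths from the table, which lists 1 transcript per gene, so levels per kilobase are approximate.

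The filterByExpr rule at a minimum count of 10 kept 18781 of 63241 genes, which were normalised by edgeR's TMM factors (trimmed means of M values) and tested with edgeR 4.0.16 (glmQLFit, glmQLFTest, two-sided) in R 4.3.3, all 4 libraries in 1 fit, with adjusted p-values by Benjamini-Hochberg over every tested gene and 0.05 as the threshold. SE is the absolute log2 fold change over the square root of F, and intervals are 95%. "Rose" and "fell" mean past that threshold. CPM are counts per 1e+06 of the scaled total. An exact permutation test of 2 libraries against 2 cannot go below p = 0.333 and was not run. The code was tested on simulated data.

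The members and lists were chosen with earlier results of these data known. Named genes are SMARCA4, called members, the 2 most abundant per kilobase in each complex, isoform pairs, untested members, up to 5 uncalled members with the largest fold changes at a mean of at least 5 CPM, and up to 4 called genes per list. YY1, POLRMT, NRF1, TFB1M, PPARGC1A, SDHC, SDHAF3, the other F1 genes and genes that share exons were added after their values were seen. Alternatives were other scalings (RLE, upper quartile, library totals), no filter, a filter at 1 CPM in 2 libraries, DESeq2 1.42.0, limma-voom 3.58.1, a replicate block, protein-coding genes alone, removal of a length trend and leaving out each library. The list counts under these alternatives were added after seeing the data.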

Additional observations from a re-analysis of the deposited data

How the results depend on the processing

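The calls rest on 2 libraries against 2 of unequal spread: the chi-square per degree of freedom between replicates was 1.94 for shSMARCA4 and 6.93 for control. Fold changes under about 1.2-fold sit near the limit of the test, and levels under 1 CPM allow no statement. The p-values may reflect technical spread alone. With a library left out, the lone library of its group is assumed to vary like the other group. Over the genes tested, the replicate differences of the 2 groups correlated with r = 0.0754. A correlation over genes cannot decide whether same-numbered libraries share a batch, and pairing was not tested. With the replicate block 9 members rose, against 5 without it, and 15 fell, against 12.

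Members called higher numbered 15 with library totals alone, 2 with DESeq2, 1 without the low-count filter, and 1 to 14 when leaving out 1 library. Members called lower numbered 7 to 19 when leaving out 1 library and 8 to 15 elsewhere. Of all genes called, 5572 in number, the count was 3187 with no filter (35109 genes tested) and 3555 with DESeq2, and 3801 to 7446 when leaving out 1 library. The members' median of 0.0052 was 0.055 with library totals alone and -0.0077 to 0.031 when leaving out 1 library. Over the named members, 566 of the values under alternatives kept direction and side of the threshold, 41 no longer passed it, 30 newly passed it and 17 changed sign; the cause was not tested. No called member changed sign. With library totals alone the sign turned for ATP5F1C (0.0077), COX7B (0.025), COX8A (0.030), SDHAF2 (0.022) and SDHC (0.015). Leaving out 1 library gave ranges across 0 of -0.080 to 0.0013 for ATP5F1C, -0.012 to 0.020 for ATP5F1A, -0.45 to 0.92 for COX6B2, -0.31 to 1.13 for NDUFA4L2, -0.012 to 0.049 for NDUFA1, -0.015 to 0.066 for NDUFA4, -0.31 to 0.032 for NDUFAF7, -0.074 to 0.024 for SDHAF2 and -0.070 to 0.0060 for SDHC.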

Other observations

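Of 4 carriers that supply complex V with phosphate and ADP, 2 fell, 1 did not pass the test and 1 was not tested. Of all genes tested 15.8% were called lower, and of protein-coding genes 19.2%. SLC25A3, the mitochondrial phosphate carrier, was at 365 and 351 CPM in shSMARCA4 cells and 454 and 441 CPM in control cells, and fell by 0.32 (SE 0.041, adjusted p = 0.000508 by edgeR). SLC25A4, an ADP/ATP carrier, was at 17.7 and 16.2 CPM in shSMARCA4 cells and 26.3 and 23.3 CPM in control cells and fell by 0.55 (SE 0.084). Its more abundant relative SLC25A5 was at 397 and 391.97 CPM in shSMARCA4 cells and 421 and 397 CPM in control cells and did not pass the test. SLC25A6 is listed more than once, each time at 0 counts in all 4 libraries, and was not tested. Its level is therefore taken as unknown and not as absent. The number that fell was 3 without control library 2 and 2 in every other alternative.

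Of 15 genes of cytochrome c, coenzyme Q synthesis and the electron transfer flavoprotein, 1 rose and 1 fell, with a median log2 fold change of 0.088. Over all genes tested 13.8% were called higher and 15.8% lower. COQ2, the prenyl transferase of coenzyme Q synthesis, was at 28.1 and 28.7 CPM in shSMARCA4 cells and 23.9 and 24.4 CPM in control cells, a rise of 0.24. COQ4, a further gene of that pathway, fell by 0.51, at 7.25 and 7.72 CPM in shSMARCA4 cells and 11.0 and 10.3 CPM in control cells. Over the 14 alternatives, the count called higher moved in 10 and the count called lower in 4, not only where a library was left out. The number that rose was 5 without control library 1, 2 without control library 2 and 0 without either shSMARCA4 library, and 2 fell without control library 1.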
